A study of Mus musculus with 378 samples.

Results

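CD4 T cells of B16F10 tumours, a transplanted mouse melanoma, were divided by whether their own library held RNA of Pdcd1, the gene of the inhibitory receptor PD-1. Members were the single-cell libraries titled CD4 with at least 1000 genes above 0 FPKM and with Foxp3, the transcription factor that marks regulatory T cells, at 0 FPKM. There were 88 such cells, which made up 56.1% of the CD4 cells with that many genes and 29.5% of all single cells with that many genes in the series. Pdcd1 was above 0 in 23 of them, 13 from mice labelled Il27ra KO and 10 from WT mice. It was at 0 in 65, of which 26 were labelled KO and 39 WT.

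The libraries were made by Smart-seq2, which amplifies whole-transcript cDNA from individual cells, with material from C57BL/6 mice bearing B16F10 tumours. KO animals are labelled as lacking Il27ra, a chain of the receptor for the cytokine IL-27. The labels name no further treatment, time, age or animal count. Each genotype therefore counts as 1 sample, its cells are parts of that sample, and no test between classes of cells or between genotypes was made. With 2 samples a paired exact test could not give a two-sided p below 0.5. The protocol text names CD8 cells only, so the CD4 identity comes from the titles, set here beside the coreceptor genes. The WT CD4 titles hold p3 where the KO titles hold p2, so any handling that these marks stand for cannot be told apart from genotype.

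PD-1 is induced on T cells when the antigen receptor signals, and its cytoplasmic tail recruits phosphatases that dampen that signal. In tumours it is carried both by recently activated cells and by cells held in a state of lasting stimulation called exhaustion. Follicular helper T cells, which live in lymphoid follicles, also carry it, and naive and resting memory cells mostly do not. In the CD4 lineage the same receptor is found on many regulatory T cells, which were left out here through Foxp3.

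In the Pdcd1-positive cells Pdcd1 itself ran from 2.24 to 4665 FPKM with a median of 1123, and these values chose the class. Only 2 cells lay near the limit, at 2.24 and 5.83 FPKM, and the next had 146.1. A cell at 0 may still have held the transcript below what its library caught. The kept cell with fewest genes had 1050, and the library left out with most genes had 977. The lowest Foxp3 value above 0 that placed a CD4 cell outside the comparison was 0.8 FPKM.

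The cells carried the lineage RNA of their titles incompletely. Cd4, the coreceptor gene of helper T cells, was above 0 in 13 of 13 KO Pdcd1-positive and 25 of 26 KO Pdcd1-negative cells. In WT it was above 0 in 7 of 10 Pdcd1-positive and 27 of 39 Pdcd1-negative cells. Cd8a or Cd8b1, the chains of the CD8 coreceptor, was found in 4 KO Pdcd1-positive, 9 KO Pdcd1-negative, 1 WT Pdcd1-positive and 8 WT Pdcd1-negative cells. Of 10 T cell markers, all 10 were detected in each class of each genotype, though not in each cell. Their summed level had medians of 6563 FPKM in KO Pdcd1-positive, 5007 in KO Pdcd1-negative, 7470 in WT Pdcd1-positive and 5688 in WT Pdcd1-negative cells. The lowest sums were 401.71, 6.85, 3394.79 and 0 FPKM in the same order. Any of the 10 was found in 37 of 39 WT Pdcd1-negative cells and in every cell of the other classes. Cd3d, Cd3e and Cd3g were all at 0 in 1 KO and 2 WT Pdcd1-negative cells and in 0 Pdcd1-positive cells. B2m, carried by nearly all nucleated cells, was at 0 in 6 WT Pdcd1-negative cells and in none of the other 3 classes.

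Genes detected per cell stand in for depth, which FPKM hides. Their median was 2501 in KO Pdcd1-positive cells (1907 to 4631) and 2384 in KO Pdcd1-negative cells (1154 to 4262). In WT it was 2204 in Pdcd1-positive cells (1943 to 2940) and 2119 in Pdcd1-negative cells (1050 to 3548). The ranges overlapped, but the lower quartile of Pdcd1-negative cells, 1791 in KO and 1843 in WT, lay below the lowest Pdcd1-positive cell. The lower quartile of Pdcd1-positive cells was 2300.0 in KO and 2011 in WT. The median of Pdcd1-positive cells was higher by 4.93% in KO and by 4.01% in WT. With both genotypes joined, the medians of genes detected per cell were 2482 in Pdcd1-positive and 2147 in Pdcd1-negative cells, an excess of 15.6%. KO cells made up 13 of the 23 Pdcd1-positive and 26 of the 65 Pdcd1-negative cells. Beside every difference below, the median difference over all 5227 genes passing a 20% filter was 0.34 in KO and 0.21 in WT.

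Markers of other cell types were at or near 0 in most cells, but low values above 0 were common in some lists. Melanoma markers were above 0 in 22 of 23 Pdcd1-positive and 61 of 65 Pdcd1-negative cells, at median sums of 8.31 and 8.87 FPKM. These counts came almost wholly from 1 gene, Tyr, above 0 in 22 and 60 cells of those classes. Pmel was above 0 in 1 and 6, the other melanoma markers in fewer, and Sox10 in none. The highest melanoma sum was 1593.7 FPKM, in a WT Pdcd1-negative cell. Neutrophil markers were above 0 in 20 and 62 cells of the same classes, at median sums of 6.82 and 9.38 FPKM. Only Cxcr2, in 20 and 61 cells, and Csf3r, in 14 and 37, were detected from that list. S100a8, S100a9 and Retnlg were at 0 in every cell. Macrophage and monocyte markers summed to a median of 0 FPKM in all 4 classes, with highest values of 6778 in KO Pdcd1-positive, 570 in KO Pdcd1-negative, 227.97 in WT Pdcd1-positive and 768 in WT Pdcd1-negative cells. C1qa and C1qb, chains of the complement protein C1q that macrophages make, were at 0 in every cell. C1qc, Lyz2, Csf1r and Cd68 of the same list were each above 0 in 1 Pdcd1-positive cell and Cd14 in 2. Of these genes, only Cd68 was above 0 among Pdcd1-negative cells, in 1 cell. Apoe went the other way, above 0 in 1 of 23 Pdcd1-positive and 8 of 65 Pdcd1-negative cells. Emr1 was above 0 in 0 and 1 of the same classes, and Itgam in 2 and 2. Any marker of this list was found in 3 of 23 Pdcd1-positive and 10 of 65 Pdcd1-negative cells. Class II antigen presentation genes also had a median of 0 in each class. A single KO Pdcd1-positive cell stood apart, with a class II sum of 158420 FPKM, 4631 genes and 14 of 22 macrophage, class II and dendritic markers above 0. It also held Cd3e at 37.1 and Cd4 at 311.03 FPKM. B cell markers were above 0 in 1 WT Pdcd1-positive cell, at a sum of 203.6 FPKM, in 2 WT Pdcd1-negative cells, at up to 46.5 FPKM, and in no KO cell of either class. Natural killer cell markers had a median sum of 0 in each class, with highest sums of 13983 FPKM in KO Pdcd1-positive, 7669 in KO Pdcd1-negative, 581 in WT Pdcd1-positive and 1861 in WT Pdcd1-negative cells. The part of these cells in the differences was not tested beyond leaving out those with 3 or more macrophage, class II and dendritic markers.

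Across the transcriptome the Pdcd1-positive cells had more RNA of many genes and less of few. A difference here is the mean log2(FPKM + 1) of Pdcd1-positive cells minus that of Pdcd1-negative cells, so a value of 1 is a doubling on that scale, and it follows the share of cells above 0 as well as the level. Of 5227 genes detected in 20% or more of one class or the other, 442 (8.46%) were at least 1 higher in KO and in WT, and 51 (0.976%) were at least 1 lower in both. With no lower limit on the difference, 39.8% were higher and 16.6% lower in both. This split differed between alternative treatments of the cells and values, and the cause was not tested. With Pdcd1-positive cells matched on genes detected to Pdcd1-negative cells of their genotype, which paired 22 of the 23, 6.16% of genes were at least 1 higher and 3.68% at least 1 lower. With genes detected as a term in a linear fit the shares were 4.19% and 2.31%, in cells with at least 2000 genes 5.42% and 2.89%, and as a log2 ratio of mean FPKM 6.47% and 5.76%. Without cells holding Il2ra or Ikzf2, an alternative added after seeing the data, they were 9.67% and 2.74%. Signs were opposite in KO and WT for 43.6% of the 5227 genes.

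**Figure D1:**
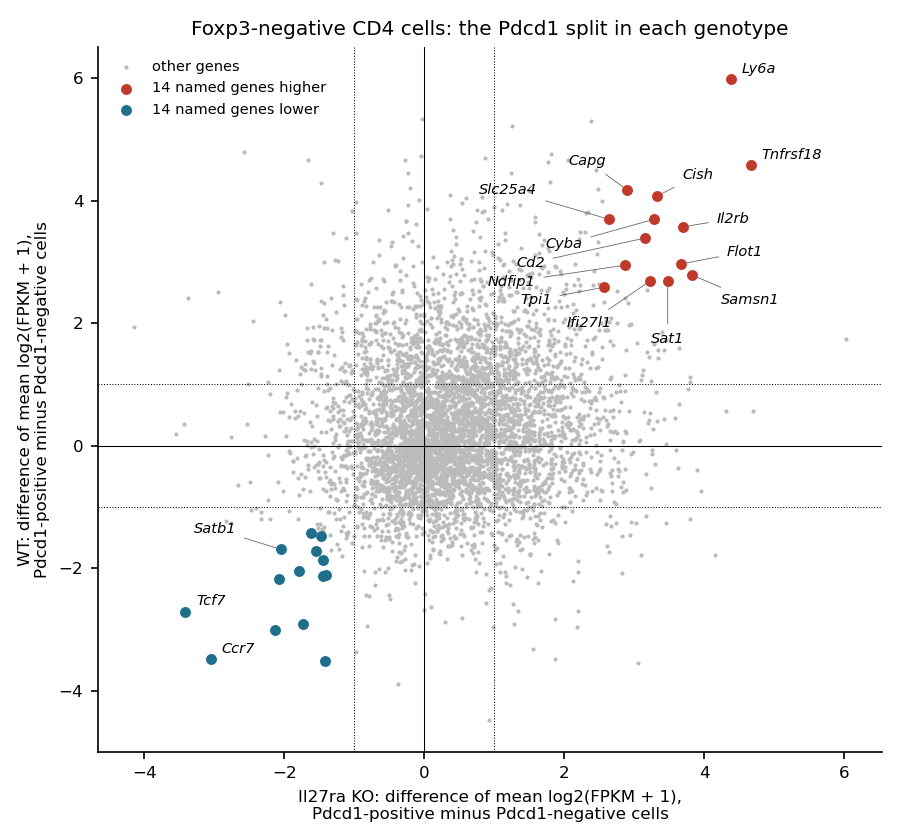
Each point is a gene, placed by its difference of mean log2(FPKM + 1), Pdcd1-positive minus Pdcd1-negative Foxp3-negative CD4 cells, in Il27ra KO (x axis) and in WT (y axis); dotted lines mark a difference of 1 either way. The 14 genes named as higher lie between 2.56 and 5.98 on both axes, and the 14 named as lower between -1.41 and -3.51.

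The 14 genes named as higher had the largest smaller-of-both-genotypes difference, and the 14 named as lower the most negative. They were chosen on these values, so their size is a description. Of 20 alternative treatments of the cells and values, 5 (each genotype alone, their mean and other gene filters) reuse the values that chose the genes. Under the other 15, all 28 kept their direction. These included the matched pairs, the fit with genes detected and the removal of the cells with markers of other types. The 15 draw largely on the cells that chose the genes. Pseudocounts 0.1 and 10, the fit and the log2 ratio of mean FPKM use every one of those cells. The kept direction is therefore no independent check.

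Tnfrsf18, which encodes the costimulatory receptor GITR, stood first among the higher genes. In KO it ran from 0 to 3935 FPKM with a median of 1018 in Pdcd1-positive cells, and from 0 to 1967 with a median of 0 in Pdcd1-negative cells. In WT the range was 0 to 5637 with a median of 1286 in Pdcd1-positive cells, and 0 to 2582 with a median of 0 in Pdcd1-negative cells. The ranges overlapped, and the classes were set apart mainly by how many cells held the RNA: 20 of 23 Pdcd1-positive cells (86.96%, exact interval 66.4 to 97.2%) against 29 of 65 Pdcd1-negative cells (44.6%, 32.3 to 57.5%). Mean log2(FPKM + 1) was 8.67 ± 3.95 in KO Pdcd1-positive (SD over cells, n = 13) and 4.01 ± 4.86 in KO Pdcd1-negative cells (n = 26), a difference of 4.67. The WT difference was 4.58. All intervals on shares are Clopper-Pearson 95% intervals that cover counting error between cells only.

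Ly6a, a surface antigen also called Sca-1 that activated T cells carry, showed the largest difference of the 28 in WT, 5.98, and 4.39 in KO. Its median was 2736 FPKM in KO Pdcd1-positive and 458 in KO Pdcd1-negative cells, and 2600 in WT Pdcd1-positive and 5.11 in WT Pdcd1-negative cells. Every WT Pdcd1-positive cell held it, the lowest at 148.4 FPKM, whereas 18 of 39 WT Pdcd1-negative cells were at 0. In matched pairs its difference over both genotypes was 3.85, against 5.27 in all cells. Its relatives in the same gene family are similar in sequence, and the sharing of reads among them by the authors' counting is not known.

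A cytokine receptor chain and a feedback inhibitor were among the 14 higher genes. Il2rb, the beta chain shared by the IL-2 and IL-15 receptors, had a median of 371.9 FPKM in KO Pdcd1-positive and 191.4 in KO Pdcd1-negative cells, and of 529 in WT Pdcd1-positive and 71.1 in WT Pdcd1-negative cells. It was above 0 in 22 of 23 Pdcd1-positive and 39 of 65 Pdcd1-negative cells, and its differences were 3.71 in KO and 3.57 in WT. Cish, which encodes a suppressor that STAT5 induces and that restrains cytokine and antigen receptor signals, differed by 3.33 in KO and 4.07 in WT. Its median was 391 FPKM in KO Pdcd1-positive and 5.33 in KO Pdcd1-negative cells, and 278 in WT Pdcd1-positive and 0 in WT Pdcd1-negative cells. The highest Cish value, 7632 FPKM, was nonetheless in a KO Pdcd1-negative cell. As a log2 ratio of mean FPKM the Cish difference was 0.99 over both genotypes, so much of it lay in the share of cells, 78.3% of Pdcd1-positive against 38.5% of Pdcd1-negative cells.

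Of the 8 higher genes with a promoter entry, Tnfrsf18 and Cish are shown because only these 2 held the STAT motif searched for. Both windows were thus chosen by the motif that is marked in them. Cish is a textbook STAT5 target. The windows are RefSeq sequence on GRCm38.p6, from 250 bases before to 50 after the gene start, at chr4:156026072-156026371 on the plus strand and chr9:107296409-107296708 on the plus strand. Capitals mark the palindromic STAT motif TTCNNNGAA, which reads the same on both strands. The Tnfrsf18 window holds it once, upstream of the RefSeq start, and the Cish window holds 2, both within the 50 bases after the RefSeq start. GENCODE places the first base of either gene further upstream, at 156026164 for Tnfrsf18 and 107296026 for Cish, so the windows are relative to RefSeq only.
Tnfrsf18: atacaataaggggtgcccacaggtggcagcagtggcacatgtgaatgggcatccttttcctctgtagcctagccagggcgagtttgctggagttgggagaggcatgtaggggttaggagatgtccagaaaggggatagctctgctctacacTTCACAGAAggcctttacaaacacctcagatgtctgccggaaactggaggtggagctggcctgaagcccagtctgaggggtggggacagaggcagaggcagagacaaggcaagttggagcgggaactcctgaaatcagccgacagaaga
Cish: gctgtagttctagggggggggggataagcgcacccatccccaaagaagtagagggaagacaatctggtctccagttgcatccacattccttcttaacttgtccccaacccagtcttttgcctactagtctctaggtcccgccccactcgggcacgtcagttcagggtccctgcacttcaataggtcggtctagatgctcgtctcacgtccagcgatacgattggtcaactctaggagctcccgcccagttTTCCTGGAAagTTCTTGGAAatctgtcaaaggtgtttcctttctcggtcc
Of 32851 promoters in the table, 2726 (8.3%) hold the motif and 150 (0.457%) hold it at least 2 times. Among the named genes with an entry, it was found in 2 of 8 higher and in 1 of 13 lower genes, the last being Aamp. A match describes letters and is not a binding site.

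The remaining higher genes span several functions. Cd2, an adhesion receptor that strengthens contact with other cells, was above 0 in 22 of 23 Pdcd1-positive and 46 of 65 Pdcd1-negative cells, with differences of 3.16 in KO and 3.39 in WT. Cyba, a subunit of the NADPH oxidase, differed by 3.29 and 3.69, and Capg, an actin capping protein, by 2.89 and 4.18. The KO cell with class II RNA held the highest KO values of both Capg and Cyba, 3300 and 3264 FPKM, and of Ly6a, 17256 FPKM. Without the cells holding 3 or more such markers the differences over both genotypes were 3.07 for Capg, 3.31 for Cyba and 5.02 for Ly6a, against 3.46, 3.55 and 5.27 in all cells. Flot1, a scaffold protein of membrane microdomains, was above 0 in 11 of 23 Pdcd1-positive cells but 9 of 65 Pdcd1-negative cells and differed by 3.67 in KO and 2.96 in WT. Ndfip1, an adaptor that activates ubiquitin ligases limiting T cell activation, differed by 2.87 and 2.95. Samsn1, an adaptor known to restrain lymphocyte signalling, differed by 3.83 and 2.78. Sat1, an enzyme of polyamine breakdown, differed by 3.48 and 2.69. Ifi27l1, an interferon-linked gene, Slc25a4, the mitochondrial ADP/ATP carrier, and Tpi1, a glycolytic enzyme, differed by 2.56 to 3.70 across both genotypes.

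Ccr7, the receptor that brings naive and central memory cells to lymph nodes, was absent from the Pdcd1-positive reads. It was above 0 in 0 of 23 Pdcd1-positive cells, for which the upper exact bound is 14.8%, and in 22 of 65 Pdcd1-negative cells (33.8%, 22.6 to 46.6%). The highest value was 4677 FPKM in KO Pdcd1-negative and 5474 in WT Pdcd1-negative cells. The 8 KO and 14 WT Pdcd1-negative cells that held Ccr7 lay above all Pdcd1-positive cells, while the other Pdcd1-negative cells were also at 0. No fold is given, since one class was wholly at 0, but the differences of the log means were -3.06 in KO and -3.48 in WT.

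Tcf7, which encodes TCF-1, a transcription factor of naive, memory and stem-like T cells, had a median of 0 FPKM in KO Pdcd1-positive and 260 in KO Pdcd1-negative cells, and of 0 in WT Pdcd1-positive and 120 in WT Pdcd1-negative cells. The ranges overlapped, with Pdcd1-positive cells reaching 553 FPKM in KO and 979 in WT. Its differences were -3.41 in KO and -2.71 in WT, and -4.30 over both genotypes in matched pairs. Satb1, a chromatin organiser of T cell development, was above 0 in 3 of 23 Pdcd1-positive and 29 of 65 Pdcd1-negative cells and differed by -2.05 and -1.70. Hmgn1, a nucleosome-binding protein, was found in 1 of 23 Pdcd1-positive and 24 of 65 Pdcd1-negative cells and differed by -2.13 and -3.02.

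The other lower genes were Srsf6, a splicing factor, Map4k2, a kinase, Trim26, a ubiquitin ligase, Ext2, an enzyme of heparan sulfate synthesis, Pcnp, Rbm10, an RNA-binding protein, Rassf1, a Ras-association protein, Eci2, an enzyme of fatty acid oxidation, Aamp and Rnf166, a ubiquitin ligase. Their differences lay between -1.41 and -2.08 in KO and between -1.42 and -3.51 in WT. In WT, Trim26, Rassf1, Aamp and Rnf166 were at 0 in all 10 Pdcd1-positive cells. Rassf1 was the least firm of the lower genes, at -0.36 over both genotypes without the cells holding Il2ra or Ikzf2, against -1.49 in all cells.

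**Figure D2:**
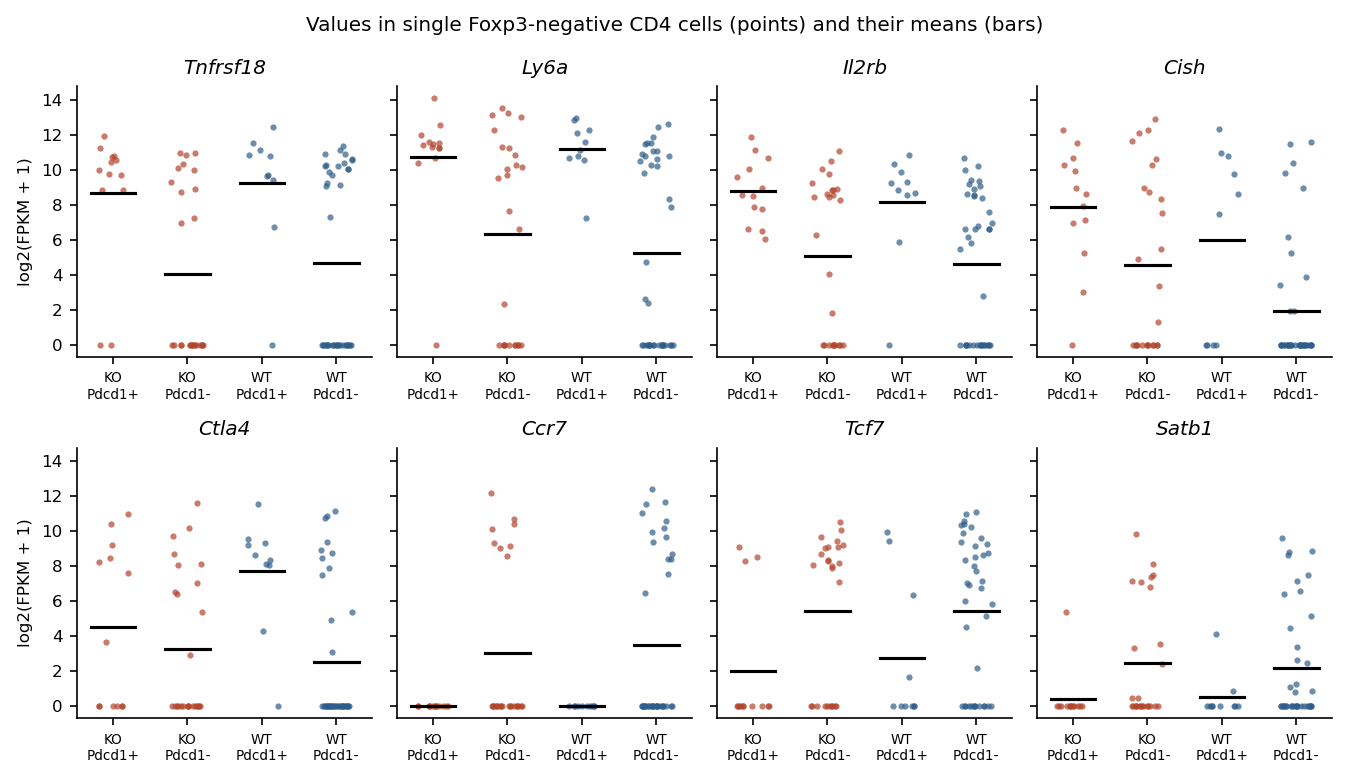
Points are single Foxp3-negative CD4 cells, with log2(FPKM + 1) on the y axis, and bars are means; columns give KO Pdcd1-positive, KO Pdcd1-negative, WT Pdcd1-positive and WT Pdcd1-negative cells for 8 genes. Tnfrsf18, Ly6a, Il2rb and Cish have more cells above 0 among Pdcd1-positive cells of each genotype, and Ccr7 has 0 of 23 Pdcd1-positive cells above 0.

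Functional groups were then read through 19 gene lists, over members detected in 10% or more of one class or the other. Among all 7656 genes that passed this filter, 5.85% were at least 1 higher and 0.705% at least 1 lower in both genotypes, 35.2% were above 0 in both, 18.8% below 0 in both and 45.5% of opposite sign. The median over those genes was 0.22 in KO and 0.11 in WT. These shares and medians are the ones to set beside every list count below. A gene can pass the filter through the class in which it is high, so the counts describe the measured members only. Members outside the naming rule are given where they were at least 1 apart in both genotypes, or for their known link to PD-1, and were picked after their values were seen.

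Costimulatory and activation receptors were the receptor group with the most members apart. All 18 passed the filter. Of these 7 were at least 1 higher in both genotypes and none at least 1 lower, against 5.85% and 0.705% over all genes. The list median was 1.11 in KO and 1.75 in WT. Tnfrsf4, which encodes OX40, was above 0 in 11 of 23 Pdcd1-positive cells (47.8%, 26.8 to 69.4%) against 11 of 65 Pdcd1-negative cells (16.9%, 8.76 to 28.3%). Tnfrsf9, which encodes 4-1BB, was found in 10 of 23 Pdcd1-positive and 7 of 65 Pdcd1-negative cells, with differences of 1.77 in KO and 3.22 in WT. Tnfsf11, the ligand RANKL, was above 0 in 7 of 23 Pdcd1-positive against 3 of 65 Pdcd1-negative cells. Tnfrsf1b, the second TNF receptor, and Cd82, a tetraspanin, completed the 7 with Tnfrsf18 and Cd2. Icos, a costimulator common to activated CD4 cells, was found in 78.3% of Pdcd1-positive and 75.4% of Pdcd1-negative cells, and its differences were -0.05 in KO and 0.17 in WT. Cd40lg, the ligand through which helper cells activate antigen-presenting cells, was at 52.2% of Pdcd1-positive and 52.3% of Pdcd1-negative cells. It was nonetheless the 1 member of the list lower in both genotypes, by 0.39 in KO and 1.82 in WT.

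Coinhibitory receptors other than PD-1 were uneven. Of 17 genes 13 passed the filter. Higher in both genotypes were 9, 3 of them by at least 1, against 35.2% and 5.85% over all genes. The other 4 had opposite signs, against 45.5%. The median was 0.45 in KO and 1.84 in WT. Ctla4, which encodes the receptor that competes for B7 ligands, had a median of 11.8 FPKM in KO Pdcd1-positive and 0 in KO Pdcd1-negative cells, and of 356.8 in WT Pdcd1-positive and 0 in WT Pdcd1-negative cells. It was above 0 in 7 of 13 KO Pdcd1-positive and 11 of 26 KO Pdcd1-negative cells, but in 9 of 10 WT Pdcd1-positive and 12 of 39 WT Pdcd1-negative cells. The differences were 1.26 in KO and 5.22 in WT. Entpd1, the ectoenzyme CD39, was above 0 in 8 of 23 Pdcd1-positive and 4 of 65 Pdcd1-negative cells, and 4632428N05Rik, an older symbol of Vsir, which encodes VISTA, in 14 of 23 Pdcd1-positive and 22 of 65 Pdcd1-negative cells.

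Of the receptors most often named with PD-1 in exhausted cells, Lag3, Havcr2 and Tigit, none was at least 1 higher in both genotypes. Lag3, a receptor for class II molecules, was found in 4 of 23 Pdcd1-positive cells (17.4%, 4.95 to 38.8%) against 9 of 65 Pdcd1-negative cells (13.8%, 6.53 to 24.7%), with differences of 0.31 in KO and 1.35 in WT. Havcr2, which encodes TIM-3, was found in 5 of 23 Pdcd1-positive (21.7%, 7.46 to 43.7%) against 5 of 65 Pdcd1-negative cells (7.69%, 2.54 to 17.05%), with differences of 0.87 in KO and 1.94 in WT. Tigit was found in 43.5% of Pdcd1-positive and 52.3% of Pdcd1-negative cells, with differences of opposite sign, -1.43 in KO and 1.92 in WT. All 3 together were above 0 in 2 of 23 Pdcd1-positive and 2 of 65 Pdcd1-negative cells.

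**Figure D3:**
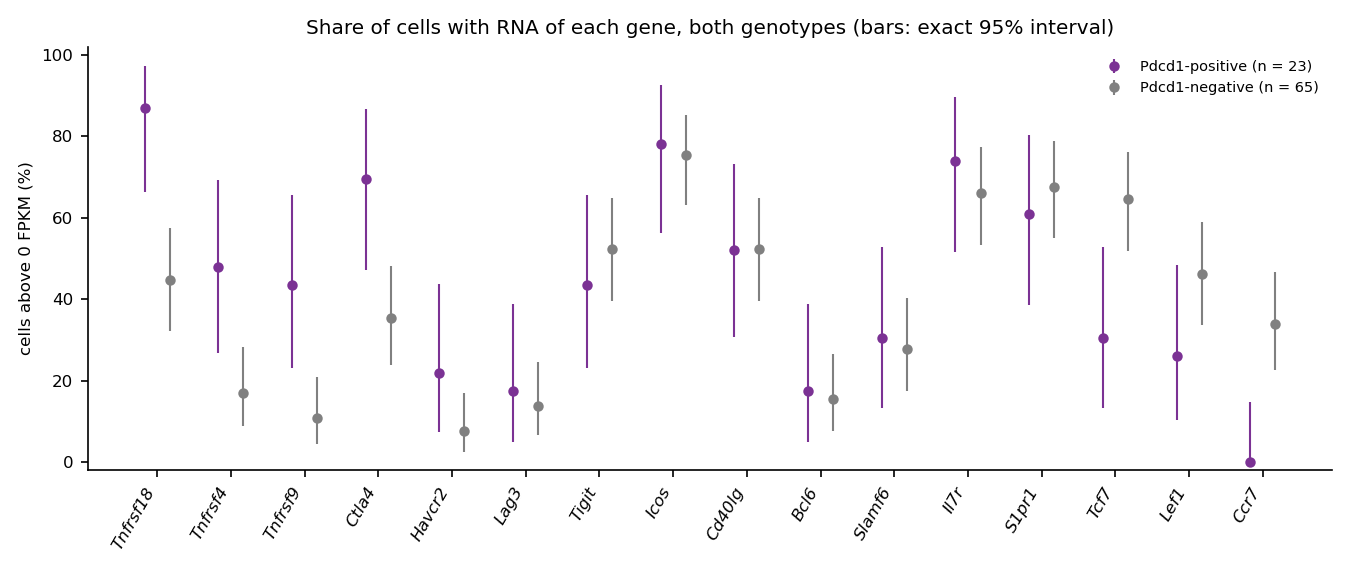
The y axis is the percentage of Foxp3-negative CD4 cells above 0 FPKM for each of 16 genes, in 23 Pdcd1-positive and 65 Pdcd1-negative cells of both genotypes, with exact 95% intervals that cover counting error only. Tnfrsf18 lies at 86.96% of Pdcd1-positive against 44.6% of Pdcd1-negative cells, Ccr7 at 0% against 33.8% and Lag3 at 17.4% against 13.8%, and Tnfrsf18 and Ccr7 were chosen for their difference.

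Most measured genes tied to regulatory T cells other than Foxp3 had more RNA in the Pdcd1-positive class. Of 17 genes 12 passed. Of these 10 were higher in both genotypes and 5 by at least 1, against 35.2% and 5.85% over all genes. The 5 were Ctla4, Tnfrsf18, Capg, Ccr8 and Areg, and Tnfrsf18 and Capg are also among the 14 genes named for their difference. Folr4, an older symbol of Izumo1r, was the 1 member lower in both, by 0.50 in KO and 1.29 in WT. Nrp1 was of opposite sign, at 1.71 in KO and -1.11 in WT. The median was 1.16 in KO and 1.66 in WT. Ccr8, a chemokine receptor of tumour regulatory T cells, was above 0 in 8 of 23 Pdcd1-positive and 8 of 65 Pdcd1-negative cells. Il2ra, the high-affinity IL-2 receptor chain, was found in 39.1% of Pdcd1-positive and 16.9% of Pdcd1-negative cells, and Ikzf2, which encodes Helios, in 30.4% and 6.15% of the same classes. Both together were above 0 in 3 of 23 Pdcd1-positive and 2 of 65 Pdcd1-negative cells. Whether Foxp3 was missed in some of these libraries was not tested. Without every cell holding Il2ra or Ikzf2, which left 10 Pdcd1-positive and 52 Pdcd1-negative cells, the difference over both genotypes was 5.08 for Tnfrsf18, against 4.52 in all cells. It was 0.62 for Ccr8, against 2.34, and 0.79 for Tox, against 1.99. In CD8 cells split by Pdcd1 in the same way, 9 of 12 measured members of this list were higher and 1 lower in both genotypes. Among CD8 genes past the 20% filter 59.1% were higher in both. The list medians in CD8 cells were 0.96 in KO and 1.64 in WT.

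Naive and memory genes had a negative median in both genotypes. Of 19 genes 17 passed, 10 were lower in both genotypes, 3 by at least 1, and 2 were higher in both, against 18.8% lower and 35.2% higher over all genes. The median was -0.35 in KO and -0.92 in WT. Besides Ccr7, Tcf7 and Satb1, Lef1, a partner of TCF-1, was found in 26.1% of Pdcd1-positive and 46.2% of Pdcd1-negative cells. Lef1 differed by -0.70 in KO and by -2.07 in WT, and that contrast between genotypes was not tested. Il7r, which encodes the specific chain of the IL-7 receptor, went the other way, at 73.9% of Pdcd1-positive and 66.2% of Pdcd1-negative cells and with differences of 0.55 in KO and 0.49 in WT. S1pr1, the receptor that lets T cells leave tissue, was at 60.9% of Pdcd1-positive and 67.7% of Pdcd1-negative cells. Its differences were -0.70 in KO and -2.27 in WT.

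Follicular helper genes gave little RNA in either class. Only 8 of 16 passed the filter. Of these 2 were higher and 3 lower in both genotypes, against 35.2% and 18.8% over all genes, and none by as much as 1. Cxcr5, the receptor that leads these cells to follicles, was above 0 in 0 of 23 Pdcd1-positive and 0 of 65 Pdcd1-negative cells, with upper exact bounds of 14.8% and 5.52%. Bcl6, the master transcription factor of follicular helper cells, was found in 17.4% of Pdcd1-positive and 15.4% of Pdcd1-negative cells, and the cytokine gene Il21 in 2 of 23 and 1 of 65 of the same classes. Il6ra and Folr4, both carried by resting or follicular cells, differed by -0.56 and -0.50 in KO and by -2.06 and -1.29 in WT. Folr4 was also a member of the regulatory T cell list, and was above 0 in 72.5% of the Foxp3-positive CD4 cells left out here.

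Of 20 T helper 1 and effector genes 15 passed, 5 were higher in both genotypes, 3 lower in both and 7 of opposite sign, shares near the 35.2%, 18.8% and 45.5% over all genes, with a median of -0.05 in KO and 1.25 in WT. Cxcr6, a chemokine receptor of tissue-resident effector cells, was above 0 in 15 of 23 Pdcd1-positive and 27 of 65 Pdcd1-negative cells and differed by 2.76 in KO and 2.53 in WT. Il18rap, a chain of the IL-18 receptor, differed by 1.01 and 2.12. Ifng, the defining cytokine of T helper 1 cells, was found in 5 of 23 Pdcd1-positive and 5 of 65 Pdcd1-negative cells, with intervals of 7.46 to 43.7% and 2.54 to 17.05%. Tbx21, which encodes T-bet, was found in 30.4% of Pdcd1-positive and 23.1% of Pdcd1-negative cells. Nkg7, a granule protein, differed by -0.28 in KO but 4.66 in WT.

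Among 16 cytotoxic genes 11 passed and 1 was at least 1 higher in both genotypes, with medians of 0.20 in KO and 0.05 in WT. That gene was Fasl, a death ligand, above 0 in 14 of 23 Pdcd1-positive and 15 of 65 Pdcd1-negative cells. Gzmb, a granzyme, was found in 3 of 23 Pdcd1-positive and 6 of 65 Pdcd1-negative cells. Of 14 genes of other helper subsets only 4 passed, and Gata3, the transcription factor of type 2 helper cells, was higher by 2.87 in KO and 0.90 in WT. It was above 0 in 19 of 23 Pdcd1-positive and 36 of 65 Pdcd1-negative cells.

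Transcription factors of activation and exhaustion had medians of 0.21 in KO and 1.06 in WT over 17 of 19 genes. Of these 10 were higher in both genotypes and 3 by at least 1, against 35.2% and 5.85% over all genes. Bhlhe40, a factor that sustains cytokine production, was above 0 in 15 of 23 Pdcd1-positive and 18 of 65 Pdcd1-negative cells and differed by 2.22 in KO and 3.48 in WT. Batf, an AP-1 factor needed for effector differentiation, differed by 3.09 and 1.06, and Maf, which promotes IL-10, by 2.10 and 1.72. Tox, a factor required for exhausted cells to persist, was found in 34.8% of Pdcd1-positive (16.4 to 57.3%) and 12.3% of Pdcd1-negative cells (5.47 to 22.8%). Irf4, another activation factor, was lower by 1.70 in KO and 0.51 in WT.

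Of the genes of antigen receptor signalling all 27 passed, 10 were higher in both, 4 lower in both and 13 of opposite sign, against 35.2%, 18.8% and 45.5% over all genes, with medians of -0.04 in KO and 0.87 in WT. Cd3e, a chain of the receptor complex, was above 0 in 23 of 23 Pdcd1-positive and 55 of 65 Pdcd1-negative cells. Lck, the kinase that starts the signal, was above 0 in 23 of 23 and 51 of 65 of the same classes. Ptpn11, which encodes the phosphatase SHP-2 that PD-1 recruits, was above 0 in 8 of 23 Pdcd1-positive (34.8%) and 6 of 65 Pdcd1-negative cells (9.23%), with differences of 1.57 in KO and 1.58 in WT. Ptpn6, the related phosphatase SHP-1, differed by -0.85 in KO and 0.46 in WT. The ligand genes of PD-1, Cd274 and Pdcd1lg2, were of opposite sign in KO and WT, at -0.71 and 0.17 for Cd274 and at -0.04 and 0.98 for Pdcd1lg2.

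Immediate early and stress genes had medians of 0.31 in KO and 0.56 in WT over 20 of 21 genes. Of these 11 were higher and 4 lower in both, against 35.2% and 18.8% over all genes. Atf3, a stress-induced factor, was found in 7 of 23 Pdcd1-positive and 3 of 65 Pdcd1-negative cells. Nfkbia, the inhibitor of NF-kB that NF-kB itself induces, differed by 1.5 in KO and 2.57 in WT. Ppp1r15a and Zfp36, which act in the stress response and in mRNA decay, were lower, by 0.81 and 1.00 in KO and by 2.94 and 0.96 in WT.

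Receptors for cytokines of the common gamma chain and others had medians of 0.54 in KO and 1.01 in WT over 17 of 17 genes. Of these 8 were higher and 4 lower in both, against 35.2% and 18.8% over all genes. The 5 at least 1 higher were Il2rb, Cish, Il2rg, Il21r and Socs2. Il2rg, the shared gamma chain, was above 0 in 23 of 23 Pdcd1-positive and 54 of 65 Pdcd1-negative cells. In the list of IL-27 and IL-10 pathway genes, 12 of 16 passed, with medians of 0.45 in KO and 1.35 in WT. Of these 9 were higher in both genotypes and none lower in both, beside the same all-gene shares. Il10ra, the IL-10 receptor chain, was above 0 in 12 of 23 Pdcd1-positive cells (52.2%, 30.6 to 73.2%) against 6 of 65 Pdcd1-negative cells (9.23%, 3.46 to 19.02%). Its median was 0 FPKM in KO Pdcd1-positive and 0 in KO Pdcd1-negative cells, and 147.7 in WT Pdcd1-positive and 0 in WT Pdcd1-negative cells, with differences of 2.46 and 4.50. Stat3, the factor that IL-10, IL-21 and IL-27 receptors activate, differed by 2.13 and 2.31.

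Chemokine receptors and integrins had medians of 1.08 in KO and 0.36 in WT over 17 of 22 genes. Of these 5 were at least 1 higher in both genotypes, Cxcr6, Ccr8, Ccr2, Gpr183 and Itgb1, and Ccr7 was at least 1 lower. Of all genes 5.85% were at least 1 higher and 0.705% at least 1 lower in both. Itgb1, the beta-1 integrin chain, was found in 82.6% of Pdcd1-positive and 58.5% of Pdcd1-negative cells.

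Glycolysis genes were higher in both genotypes for 13 of 16 members, against 35.2% of all genes, with medians of 0.98 in KO and 0.85 in WT. Tpi1, Pkm, the pyruvate kinase, and Slc16a3, a lactate exporter, were at least 1 higher in both. Housekeeping genes were also higher in both for 11 of 15 measured members of 16, with medians of 0.43 in KO and 1.01 in WT, though none by 1 in both. Genes detected per cell were also higher in Pdcd1-positive cells, by 4.93% in KO and 4.01% in WT at the median, and the part of this in the glycolysis values was not tested.

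Division genes as a list did not separate the classes. Of 34 proliferation genes 21 passed, 7 were higher in both genotypes, 5 lower in both and 9 of opposite sign. Over all genes these shares were 35.2%, 18.8% and 45.5%. The medians were 0.10 in KO and 0.07 in WT. Hmgb2 was the 1 member at least 1 higher in both, by 1.31 in KO and 1.53 in WT, and 0 were at least 1 lower in both. Mki67, a marker of dividing cells, was found in 3 of 23 Pdcd1-positive and 7 of 65 Pdcd1-negative cells. Of 36 interferon-stimulated genes 35 passed, 8 were higher, 6 lower and 21 of opposite sign, beside the same all-gene shares. Their medians were 0.22 in KO and -0.06 in WT, and 4 were at least 1 higher in both genotypes. Irf1, an interferon-induced factor, was at least 1 lower in both, by 2.76 in KO and 1.26 in WT, and was found in 47.8% of Pdcd1-positive and 66.2% of Pdcd1-negative cells.

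**Figure D4:**
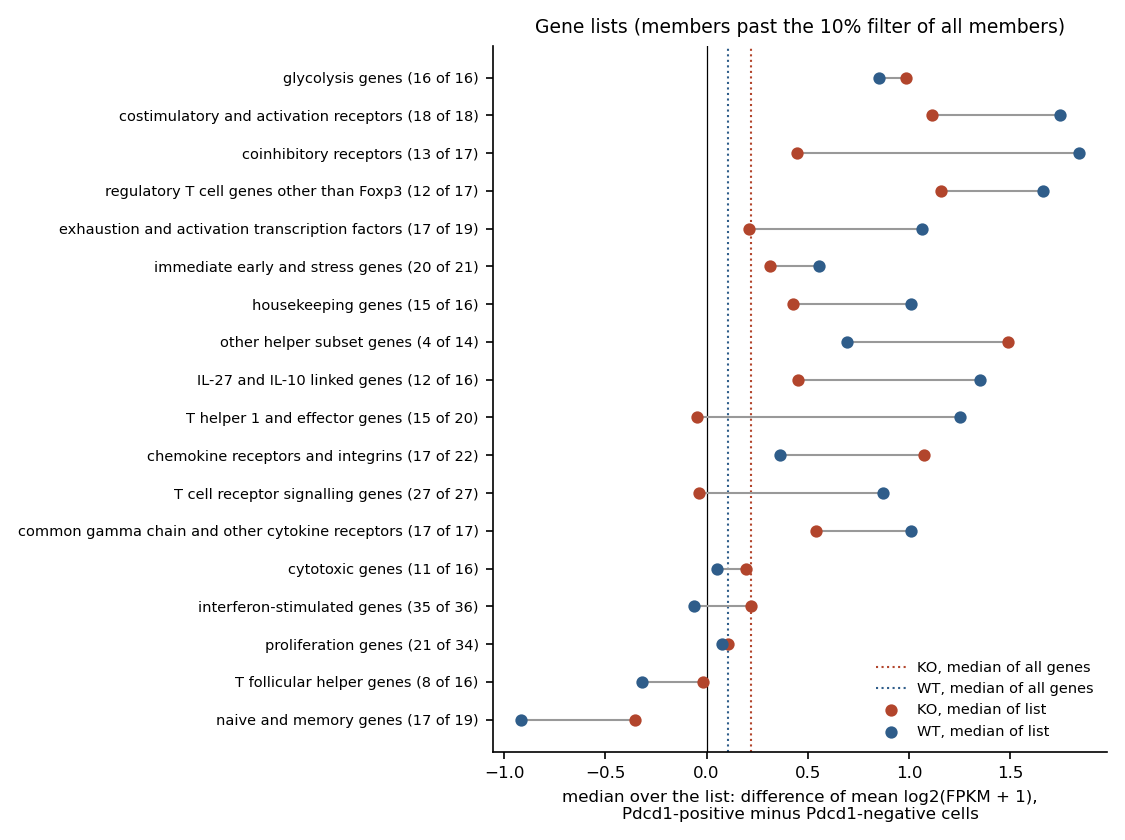
Each row is 1 of 18 gene lists (the 2 PD-1 ligand genes are not plotted), and points are the median over its measured members of the difference of mean log2(FPKM + 1), Pdcd1-positive minus Pdcd1-negative Foxp3-negative CD4 cells, in KO and in WT; dotted lines are the medians over all 7656 genes, 0.22 in KO and 0.11 in WT. Naive and memory genes lie lowest, at -0.35 in KO and -0.92 in WT.

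Joint detection of the leading genes was counted per cell. All of Tnfrsf18, Ly6a, Il2rb and Cish, a set picked after the values were seen, were above 0 in 16 of 23 Pdcd1-positive and 10 of 65 Pdcd1-negative cells, and every Pdcd1-positive cell held at least 2 of them. By genotype the Pdcd1-positive count was 11 of 13 in KO and 5 of 10 in WT. Each gene was frequent in Pdcd1-positive cells by the way it was chosen, so the joint count follows in part from that. None of Tcf7, Lef1 and Ccr7 was above 0 in 13 of 23 Pdcd1-positive and 17 of 65 Pdcd1-negative cells, and all 3 were found in 0 of 23 Pdcd1-positive and 17 of 65 Pdcd1-negative cells. Tnfrsf18 and Tcf7 did not exclude each other, since both were above 0 in 6 of 23 Pdcd1-positive and 20 of 65 Pdcd1-negative cells. The Pdcd1-negative class was thus uneven, and 40 of its 65 cells held 2 or more of the 4 leading genes. A cell with more genes detected has a greater chance of holding any set, so these counts share that depth.

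The same split was made in cells outside the rule, the 69 Foxp3-positive CD4 cells (26 Pdcd1-positive and 43 Pdcd1-negative) and the CD8 cells (62 Pdcd1-positive and 79 Pdcd1-negative). In CD8 cells 12 of the 14 higher genes were higher in both genotypes, where 59.1% of all 6845 genes were, and 10 were at least 1 higher, where 14.1% were. In Foxp3-positive CD4 cells 10 of the 14 were higher in both, where 46.8% of 6106 genes were, and 8 by at least 1, where 13.9% were. Tnfrsf18 differed by 4.43 in KO and 4.75 in WT in CD8 cells. In Foxp3-positive CD4 cells it was above 0 in 96.2% of Pdcd1-positive and 93.02% of Pdcd1-negative cells, and its differences there were 0.59 and 2.94. Cish was at -1.24 in KO and 0.21 in WT there, and Flot1 at -0.55 and -0.06 in CD8 cells.

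Of the 14 lower genes, 4 were lower in both genotypes in Foxp3-positive CD4 cells, where 14.8% of all genes were, and 1 by at least 1, where 1.28% were. In CD8 cells 4 were lower in both, where 6.24% of all genes were, and 2 by at least 1, where 0.205% were. Higher in both were 7 of them in Foxp3-positive CD4 cells and 5 in CD8 cells. Tcf7, Satb1 and Rassf1 were lower in both genotypes in all 3 populations, with Tcf7 at -0.91 and -1.45 in Foxp3-positive CD4 cells and at -1.31 and -2.70 in CD8 cells. Ccr7 was lower in CD8 cells, by 2.68 in KO and 0.94 in WT, and was found in 8.70% of all Foxp3-positive CD4 cells.

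Of 17 coinhibitory receptors measured in CD8 cells 11 were higher and 2 lower in both genotypes, where 59.1% of the CD8 genes past the 20% filter were higher. Single members had large differences there. Lag3 was above 0 in 83.9% of Pdcd1-positive and 16.5% of Pdcd1-negative CD8 cells, with differences of 4.90 in KO and 7.27 in WT. In Foxp3-negative CD4 cells the same differences were 0.31 and 1.35. Havcr2 was found in 69.4% of Pdcd1-positive and 11.4% of Pdcd1-negative CD8 cells, and Tigit in 90.3% and 49.4% of those classes. In Foxp3-positive CD4 cells Lag3 was above 0 in 73.1% of Pdcd1-positive and 27.9% of Pdcd1-negative cells. Havcr2 was found in 61.5% and 32.6% of those classes, and Tigit in 96.2% and 81.4%. Each of these genes was higher in both genotypes there. Of 13 coinhibitory receptors measured there 7 were higher and 1 lower in both genotypes, where 46.8% of all genes were higher. Tox differed by 2.51 in KO and 4.74 in WT in CD8 cells, against 0.98 and 3.12 in Foxp3-negative CD4 cells. Proliferation genes had medians of 0.09 in KO and 2.99 in WT in the CD8 split, where the medians over all genes were 0.25 and 1.27. Each population is 1 sample per genotype, so no difference between populations was tested.

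**Figure D5:**
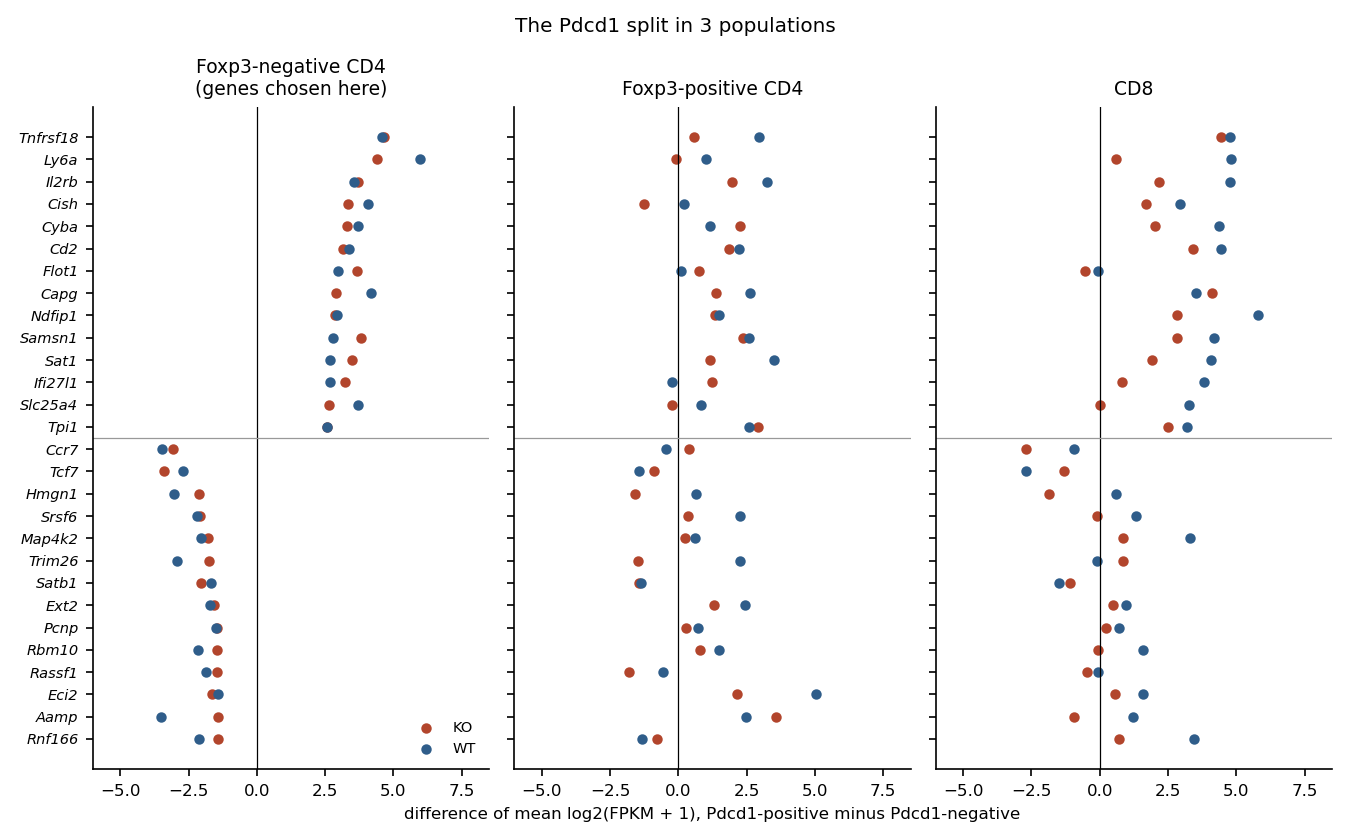
The x axes give the difference of mean log2(FPKM + 1), Pdcd1-positive minus Pdcd1-negative cells, for the 14 higher (upper rows) and 14 lower genes in Foxp3-negative CD4, Foxp3-positive CD4 and CD8 cells, with a point for KO and one for WT. The genes were chosen in the left panel, and 12 of 14 higher but 4 of 14 lower genes keep their side of 0 in both genotypes in CD8 cells.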

How the data were processed

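Values are FPKM as deposited, made by the authors with Bowtie and RSEM on mm10 per the submitters' processing notes (no versions given) and scaled by TMM per the labels' description of the file. Sequencing depth cannot be read from this unit. Per the labels' protocols, cDNA was amplified over 21 cycles. With no molecular identifiers mentioned, copies made by amplification could not be separated from distinct molecules. No gene annotation is named in the labels used here. The table holds 23420 genes.

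Groups came from the titles. Members and gene lists were chosen with earlier results of these data known. Cells with at least 1000 genes above 0 FPKM and Foxp3 at 0 were split by Pdcd1 above 0 or at 0, and Pdcd1 was left out of the results. Gene by gene, mean log2(FPKM + 1), pseudocount 1, of Pdcd1-negative cells was subtracted from that of Pdcd1-positive cells, over both genotypes and in each, which understates the fold of low genes. No p-value was made for any gene, and a difference of at least 1 in KO and in WT was the limit used for counts. Named genes were the 14 highest and the 14 lowest by the smaller of the KO and WT differences among genes detected in 20% or more of either class, without T cell receptor, immunoglobulin, mitochondrial, predicted and small RNA genes. The 2 members of every list that differed most, up or down, and a set of genes given as shares were also named. A gene of the last set is not reported here. In all 19 function lists and 13 marker lists, 1 symbol was not matched, and 5 were matched under an older name. No doublet caller was run, and libraries with RNA of 2 cell types were kept, except in an alternative. The 20 alternatives covered the pseudocount, the filter, depth and cells with RNA of other types. The calculation was checked on simulated data. Python 3.11.15, numpy 2.4.6, pandas 2.3.3 and scipy 1.17.1 were used.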

Additional observations from a re-analysis of the deposited data

Results flagged for a closer look

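For 7 genes the split by Pdcd1 ran in opposite directions in the 2 genotypes, with both differences at least 0.5 in size. These contrasts were not tested, since each genotype is 1 sample, and 43.6% of all 5227 genes had opposite signs.

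Tigit, a coinhibitory receptor, differed by -1.43 in KO and 1.92 in WT, and was found in 5 of 13 KO Pdcd1-positive, 17 of 26 KO Pdcd1-negative, 5 of 10 WT Pdcd1-positive and 17 of 39 WT Pdcd1-negative cells. Cd96, which binds some of the same ligands, differed by -1.15 in KO and 1.01 in WT. Cd226, the activating counterpart of both, ran the other way, at 1.07 in KO and -1.13 in WT. Ccl5, a chemokine of effector cells, differed by -1.49 in KO and 1.72 in WT. Rora, a factor of several helper subsets, differed by 2.52 in KO and -0.72 in WT. Klf2, which drives genes of recirculation, differed by 1.34 in KO and -0.75 in WT, and was at 0 in all 10 WT Pdcd1-positive cells.

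Il27ra differed by -1.24 in KO and 3.01 in WT. Its median was 0 FPKM in KO Pdcd1-positive and 8.13 in KO Pdcd1-negative cells, and 130 in WT Pdcd1-positive and 0 in WT Pdcd1-negative cells. The table gives 1 value per gene, so a transcript with a deleted part would still be counted in mice labelled KO.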

How the results depend on the processing

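Of the 20 alternatives, 5 reuse the values that chose the 28 leading genes, so their direction was fixed there. Under the other 15, 1 of which, leaving out cells with Il2ra or Ikzf2, was chosen after seeing the data, all 28 kept their direction. With pseudocount 10, 22 of the 28 remained at least 1 apart. The 15 draw largely on the cells that chose the genes, so the kept direction is no independent check.

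Values here are the percent of genes at least 1 higher in both genotypes and the percent of genes at least 1 lower in both genotypes, the percent excess of genes detected per cell in Pdcd1-positive over Pdcd1-negative cells, and the median difference of proliferation genes, the median difference of T follicular helper genes, the median difference of naive and memory genes, the median difference of exhaustion and activation transcription factors and the median difference of costimulatory and activation receptors over both genotypes. In all cells these were 8.46% higher, 0.976% lower, an excess of 15.6%, and medians of 0.14, -0.05, -0.40, 1.05 and 1.36. KO cells alone gave 26.8% higher, 6.42% lower, an excess of 4.93%, 0.20 for exhaustion factors and 0.25 for proliferation. WT cells alone gave 27.998% higher, 7.84% lower, an excess of 4.01%, -0.92 for naive and 0.11 for proliferation genes, and each of these settings needs a difference in 1 genotype only. Pseudocount 0.1 gave 15.1% higher, 2.53% lower, 2.00 for costimulatory and 0.31 for proliferation genes, and pseudocount 10 gave 2.18%, 0.115%, 0.76 and 0.10. With no filter on low genes 3.27% were higher and 0.394% lower, over more genes tested, and the follicular helper median was 0.19. At least 2000 genes per cell gave 5.42% higher, 2.89% lower, an excess of 4.73% and 0.18 for proliferation. Matched pairs gave 3.68% lower, an excess of 2.91%, -1.22 for naive and -0.12 for proliferation genes, and the fit with genes detected 4.19% higher, 2.31% lower and 0.10 for proliferation. The log2 ratio of mean FPKM gave 5.76% lower, -0.88 for follicular helper, -1.47 for naive and 0.081 for proliferation genes. Leaving out cells with Il2ra or Ikzf2 gave 2.74% lower, an excess of 7.38%, 0.17 for follicular helper and -1.19 for naive genes. Without cells with Mki67 or Top2a 1.71% were lower, with an excess of 11.6% and -0.031 for proliferation. Without cells with Cd4 at 0 the excess was 10.2%, with 0.19 for follicular helper and 0.33 for proliferation genes. The excess was 11.6% without cells with markers of other types (proliferation 0.10), 16.3% without cells with Cd8a or Cd8b1, 10.2% without cells lacking B2m or Cd3 and 9.57% without cells with Il2ra and Ikzf2. With Pdcd1 above 10 FPKM it was 16.4%, and the proliferation median was 0.23. That median was 0.17 as the mean of both genotypes and 0.19 at 500 genes per cell. The signs of the follicular helper and proliferation medians were therefore not stable. The cause of these shifts was not tested.

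No paired analysis was possible because cells carry library numbers only, each genotype is 1 sample and no test was made. The small number of Pdcd1-positive cells, 13 in KO and 10 in WT, and the zeros of single-cell libraries limit every value, and no error between animals can be given.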
